A study of Zea mays with 18 samples.

Results

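Event 1 of the ATHB17Δ113 maize was compared with non-transformed control plants in ear inflorescence, the young ear collected at the V16 leaf stage, before silks appear. The comparison used 3 event 1 samples and 3 control samples of the 18 in the series. Its members were the 39596 of 76612 transcript identifiers whose mean normalized read number over these 6 samples was at least 10. The members nearest that limit had a mean of 10.00167, and the nearest identifiers outside it had 9.99833. The threshold used expression level over both groups together and not the difference between them.

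All plants were the maize hybrid NN6306 grown in 1 field season in Illinois in 2012. Event 1 plants carried the Arabidopsis ATHB17 coding sequence behind the rice actin promoter, which is active in most tissues, and their maize-spliced product lacks the N-terminal part of the protein. The transformation vector also held the CP4 EPSPS glyphosate tolerance marker. The labels call the controls non-transformed, and the study states that where its field trials included tolerance traits these were present in test and control entries alike. Effects of the insertion and of ATHB17Δ113 cannot be told apart within event 1. Event 1 is a single transformation event with 1 copy of the cassette. A further event, event 2, and ears collected at silking (R1) from all 3 genotypes were sequenced in the same study. Event 2 ear inflorescence was set against the same 3 control samples as event 1, while the ear comparison used other samples. Reads were mapped to maize transcripts, and the level of the transgene was not analysed here.

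HD-Zip II proteins, plant transcription factors named for a homeodomain joined to a leucine zipper, bind DNA as dimers and mostly repress their targets. A truncated form without the repression domain can pair with the full-length proteins. The heat stress response is a separate and well described programme in plants. Heat stress transcription factors (HSFs) switch on small heat shock proteins, which hold unfolding proteins in a soluble state, the HSP70 and HSP90 chaperones, which refold proteins and keep client proteins active, and HSP101, which pulls aggregated proteins apart. Many of these chaperones are also made in growing meristems without heat.

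In event 1 ear inflorescence, hsp22, a BAG domain transcript and most of the large heat shock chaperones were lower than in control. Members with separated groups and a change of at least 2-fold were mostly of low abundance in both directions. A mean below 50 normalized reads was found for 37 of 46 higher and 29 of 43 lower ones, against 12769 of 39596 members. Of the higher ones 17.4% paired with a RefSeq gene, against 53.5% of the lower ones and 40.2% of all members. The differences were few. Of the 39596 members, 6 passed the threshold of a raw p at or below 0.0001 in limma (0.0152%), with 2 higher in event 1 (0.00505%) and 4 lower (0.0101%). Over all 76612 identifiers 44 passed (0.0574%), with 18 higher (0.0235%) and 26 lower (0.0339%). With p-values adjusted over all identifiers by the Benjamini-Hochberg method, 1 member was below 0.05 (0.00253%), namely hsp22, and 2 of all identifiers were (0.00261%). A raw p below 0.05 was found for 348 members (0.879%), of which 170 were higher (0.429%) and 178 lower (0.45%). On the recovered reads edgeR called 55 members, 24 higher and 31 lower, and DESeq2 called 23, 7 higher and 16 lower, and both sets held all 6. In a limma fit to the 6 samples alone no member was called and 435 had a raw p below 0.05. Over all members the median log2 fold change, on the scale of log2(normalized reads + 1) used throughout, was -0.03.

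The event 1 libraries did not deviate from the controls in a common direction, which is described before the results. Across members the SD of the log2 deviations was 0.58, 0.53 and 0.36 in event 1 replicates 1 to 3. Control replicates 1 to 3, each set against the other controls, had 0.35, 0.32 and 0.38. Replicate 2 thus lay nearly as far out as replicate 1. Event 1 replicate 1 deviated from the control mean in the opposite direction to the other event 1 replicates. The correlation of deviations across members was -0.56 between replicates 1 and 2, -0.30 between replicates 1 and 3 and 0.50 between replicates 2 and 3. These are descriptions across transcripts of libraries that share the same control mean. Transcripts of genes that span at most 2295 bases in the RefSeq annotation had a median deviation of -0.49 in event 1 replicate 1, 0.39 in replicate 2 and 0.19 in replicate 3, against -0.15, -0.05 and 0.20 in control replicates 1 to 3. Along the difference between ear and ear inflorescence measured in event 2, event 1 replicate 1 had a slope of -0.25, replicate 2 of 0.30 and replicate 3 of 0.09, against slopes of -0.06, -0.10 and 0.17 in the controls. Transcripts whose event 1 samples were all above or all below the controls numbered 581 (1.47%) and 520 (1.31%) with all 6 libraries. Without event 1 replicate 1 they numbered 7571 (19.1%) and 8731 (22.1%). The latter counts set 2 samples against 3, which separate more easily by chance than 3 against 3. No such count was made without another replicate, so the rise does not single out replicate 1. The parts of replicates 1 and 2 in the results were not tested. Values without replicate 1 are given beside the main results. They rest on replicates 2 and 3 alone and are not taken as truer than those with all samples.

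**Figure D1:**
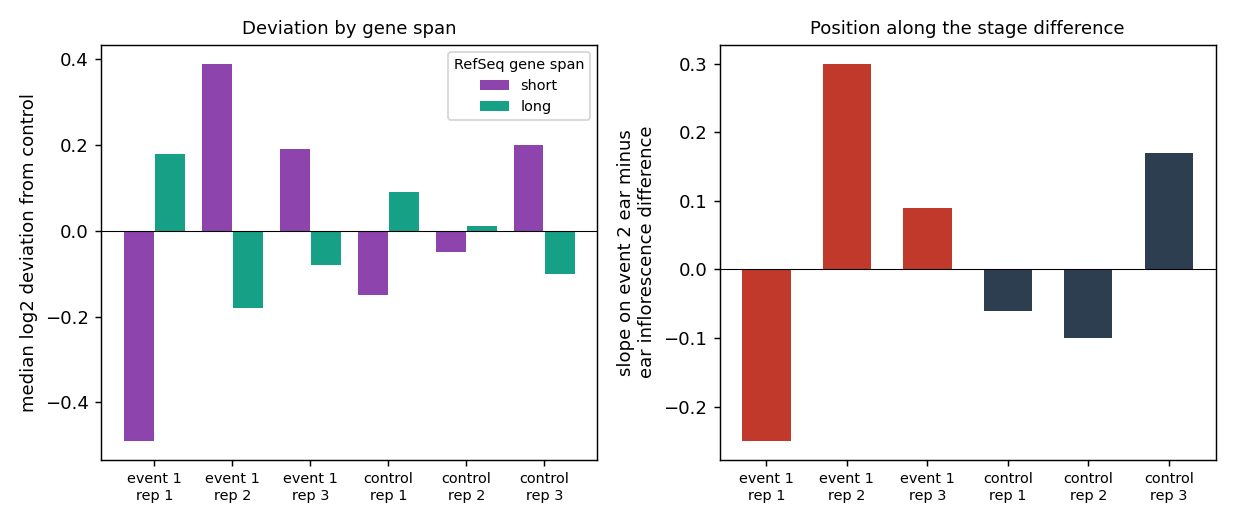
Left, median log2 deviation from the control mean (y axis) for transcripts of genes that span at most 2295 bases (short) and at least 5979 bases (long), in 3 event 1 and 3 control libraries of ear inflorescence; right, slope of each library's deviations on the event 2 difference between ear and ear inflorescence. Event 1 replicate 1 lies at -0.49 for short genes and at -0.25 on the stage difference, and event 1 replicate 2 lies at 0.39 and 0.30.

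The tissue label was checked against its markers. The 10 KNOX genes, which mark meristems, were expressed in all samples, with a summed level of 10200 to 18700 normalized reads in event 1 and 14800 to 17400 in controls. Control ears had 12000 to 14300, so the KNOX sum does not tell ear inflorescence from ear. The 40 MADS box genes, also chosen as ear inflorescence markers, went the other way. Their sum was 49700 to 91000 in event 1 and 64200 to 72300 in controls, but 116000 to 122000 in control ears. The 2 ramosa genes, ra1 and ra3, summed to 24.3 to 56.9 in event 1, 29.4 to 73.8 in controls and 7.03 to 21.1 in control ears. Kernel zeins were near the detection limit, at summed levels of 9.01 to 29 normalized reads in event 1 and 12.9 to 23.8 in controls, against 115 to 184 in control ears. The 26 photosynthesis genes, markers of green tissue, summed to between 11000 and 25600 normalized reads in event 1 and between 15700 and 24200 in controls. In control ears they summed to between 51500 and 61700. All samples were of whole tissue, so fewer cells of a type and less RNA per cell cannot be told apart. Assigned reads numbered 27293941 to 38329022 in the event 1 libraries and 39195402 to 43705536 in the control libraries.

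The transcript with the smallest p among members was hsp22 (GRMZM2G007729), which encodes a small heat shock protein of mitochondria. It had 2856, 4171 and 3336 normalized reads in event 1 and 12058, 7734 and 9601 in control. Every event 1 sample was below every control sample, and the mean was 3454 ± 665 in event 1 and 9798 ± 2168 in control (SD). The transcript fell by 1.50 ± 0.20 on the log2 scale (SE, limma, adjusted p = 0.0391). Without event 1 replicate 1 it fell by 1.37, and it was called whichever of the 6 samples was left out.

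GRMZM2G097135, annotated by the study as a BAG domain protein, fell further. BAG proteins bind HSP70 as co-chaperones. This transcript had 88.7, 101 and 90.7 normalized reads in event 1, against 1080, 538 and 401 in control. The event 1 samples were close to each other and all below the controls, among which replicate 1 was highest. The log2 fold change was -2.71 ± 0.40 (SE, limma, adjusted p = 0.0524). It was -2.67 without event 1 replicate 1, and -2.30 without control replicate 1, and was called in neither case.

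No other small heat shock protein was called. The list held 5 members including hsp22, and the other 4 had overlapping groups. Cytosolic hsp18a (GRMZM2G404249) had 1009, 2996 and 3038 normalized reads in event 1 and 2213, 3160 and 2299 in control. Its low value came from event 1 replicate 1, while replicates 2 and 3 lay within the range of the controls. The log2 fold change of hsp18a was -0.27 with all samples and 0.26 without event 1 replicate 1. The related hsp18c (GRMZM2G034157) had 571, 1724 and 1864 normalized reads in event 1 and 1329, 1853 and 1289 in control, with replicate 1 again lowest. Since a read was counted on every transcript it matched, the hsp18 transcripts may share reads and were not taken as separate evidence. The list median was -0.26, and 0.29 without event 1 replicate 1.

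The larger chaperones were lower as a group. All 7 members of the HSP70, HSP90 and HSP101 list had a fitted change below 0, against 56.6% of all members. In 4 of the 7 every event 1 sample was below every control sample, against 1.31% of all members, 5 had a raw p below 0.05, against 0.45% of all members in that direction, and none was called. The median log2 fold change of the list was -0.63, against -0.03 over all members. The median deviation of the list was -0.98, -0.36 and -0.60 in event 1 replicates 1 to 3, against 0.08, -0.11 and -0.01 in control replicates 1 to 3. All 3 event 1 medians were therefore below all 3 control medians, with replicate 1 lowest. Of 48 lists with at least 3 members, 2 were separated in this direction. With 3 samples a group, a few of 48 lists can separate in this way by chance, which was not tested. Without event 1 replicate 1 the median of the chaperone list was -0.48, with 6 of 7 members below 0. The genes were counted by symbol, and closely related chaperone genes may share reads.

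The disaggregase hsp101 (GRMZM2G360681) had 1457, 1775 and 1498 normalized reads in event 1 and 3443, 2426 and 2864 in control. Its groups did not overlap, with a log2 fold change of -0.88 ± 0.20 (SE, limma, adjusted p = 0.314). The change was -0.82 without event 1 replicate 1. On recovered reads it was called by edgeR (adjusted p = 0.0491) and by DESeq2 (adjusted p = 0.0736).

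Among the HSP70 genes, hsp70-5 (GRMZM5G802801) had 1721, 3175 and 2419 normalized reads in event 1 and 4323, 3819 and 4237 in control. The event 1 samples were all lower and more spread than the controls, and the log2 fold change was -0.80 ± 0.20 (SE, limma, adjusted p = 0.506), or -0.57 without event 1 replicate 1. GRMZM2G310431, named Hsp70, had 5820, 8326 and 7034 normalized reads in event 1 and 11261, 10353 and 10463 in control. Its groups did not overlap and the log2 fold change was -0.61, or -0.48 without event 1 replicate 1. The most abundant HSP70 transcript, hsp70-4 (GRMZM2G340251), had 135325, 318370 and 233068 normalized reads in event 1 and 210662, 197791 and 251357 in control. Event 1 replicates 1 and 2 lay on either side of all controls for hsp70-4, and its log2 fold change was -0.02.

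The HSP90 transcripts were lower by varying amounts. HSP90-1 (GRMZM2G024668) had 13862, 22349 and 22009 normalized reads in event 1 and 35678, 27691 and 25775 in control. All event 1 samples of HSP90-1 were below the controls, and the log2 fold change was -0.63, or -0.41 without event 1 replicate 1. HSP90-2 (GRMZM2G012631) had 15743, 25097 and 22457 normalized reads in event 1 and 25879, 24228 and 23850 in control. Its groups overlapped and its log2 fold change of -0.25 became -0.05 without event 1 replicate 1. The low-abundance hsp82 (GRMZM5G833699) had 45.7, 126 and 74.9 normalized reads in event 1 and 169, 118 and 142 in control, with event 1 replicate 2 inside the control range. Its log2 fold change of -0.90 was -0.54 without event 1 replicate 1.

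**Figure D2:**
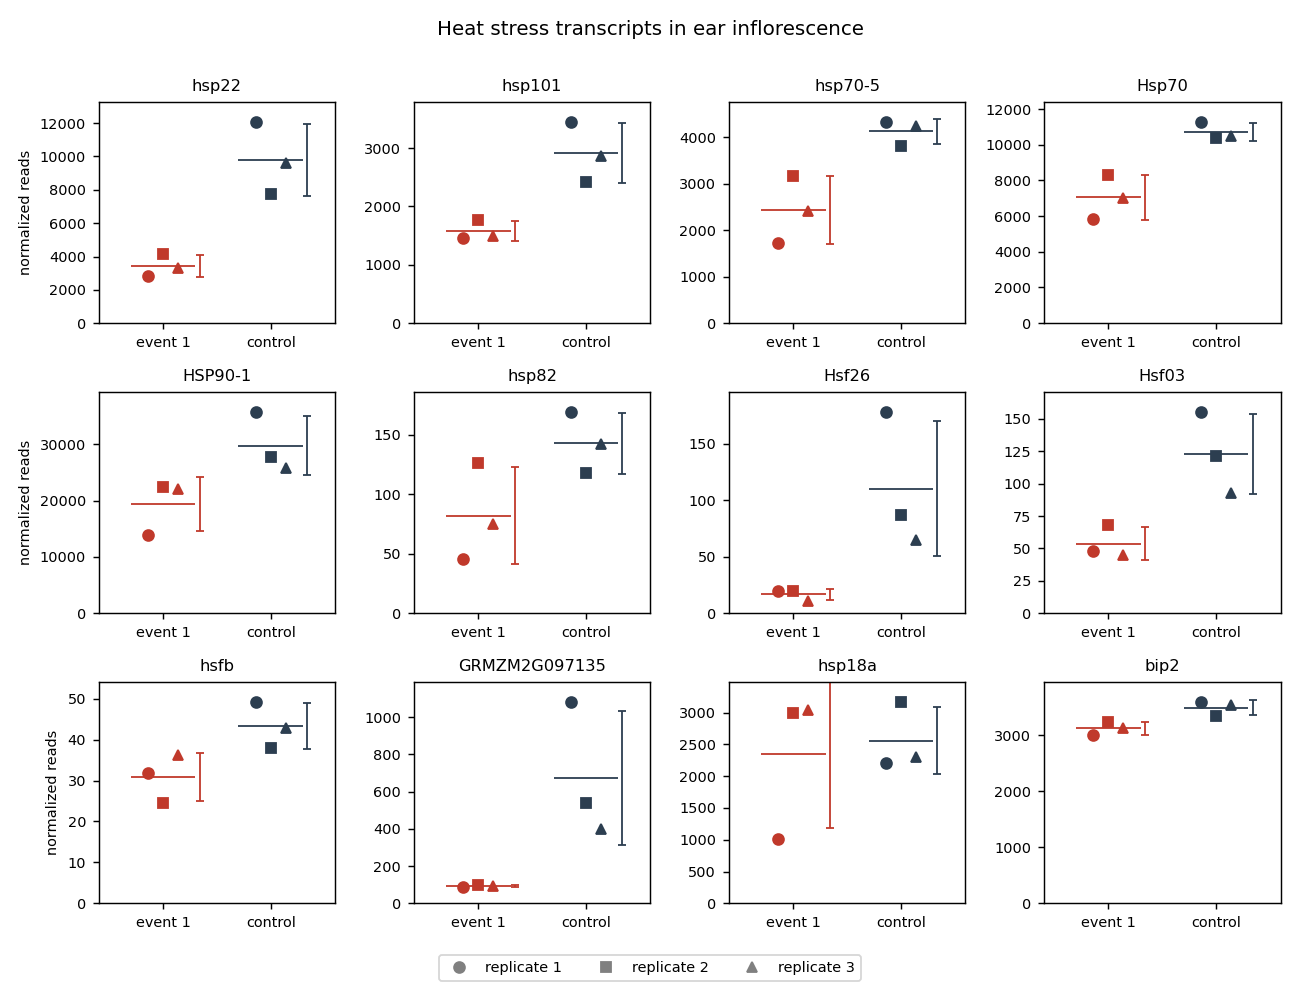
Normalized reads (y axis, from 0) of 12 heat stress and chaperone transcripts in 3 event 1 and 3 control samples of ear inflorescence; marker shape gives the replicate, lines the group mean and bars the SD. For hsp22, hsp101, hsp70-5 and Hsp70 every event 1 sample lies below every control sample, whereas for hsp18a event 1 replicate 1, at 1009, is the only event 1 sample below the controls.

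The HSF list held 11 members. None was called, and 4 of the 11 had a fitted change above 0, against 43.4% of all members. A raw p below 0.05 in the lower direction was found for 3, against 0.45% of all members, and 3 had every event 1 sample below every control sample, against 1.31%. With event 1 replicate 1 left out, 4 had both remaining event 1 samples above all controls, against 19.1% of all members, and 3 had both below, against 22.1%. Hsf26 (GRMZM2G003489) had 19.4, 19.9 and 10.9 normalized reads in event 1 and 178, 87.4 and 65.2 in control. The event 1 samples were low and close together, and the log2 fold change was -2.56 ± 0.61 (SE, limma, adjusted p = 0.415). Hsf03 (GRMZM2G164909) had 47.8, 68.2 and 44.7 normalized reads in event 1 and 155, 121 and 93 in control, again without overlap. Its log2 fold change was -1.18, and -1.11 without event 1 replicate 1. Both Hsf26 and Hsf03 were called by edgeR and by DESeq2 on recovered reads.

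Other HSFs differed less. The class B factor gene hsfb (GRMZM2G118453) had 31.9, 24.6 and 36.3 normalized reads in event 1 and 49.1, 38 and 42.9 in control, with no overlap and a log2 fold change of -0.48. Hsf05 (GRMZM2G133023) had 17.3, 55.9 and 43.5 normalized reads in event 1 and 91.1, 63.8 and 55.6 in control. For Hsf05 event 1 replicate 2 overlapped the lowest control, and the log2 fold change of -0.95 became -0.47 without event 1 replicate 1. The most abundant of those examined, Hsf17 (GRMZM2G125969), had 773, 1037 and 915 normalized reads in event 1 and 1207, 1096 and 1024 in control, and a log2 fold change of -0.29, or -0.18 without event 1 replicate 1. Hsf12 (GRMZM2G384339) had 377, 784 and 567 normalized reads in event 1 and 452, 463 and 553 in control. Event 1 replicate 1 was below and replicates 2 and 3 above all controls for Hsf12, and its log2 fold change of 0.18 was 0.45 without replicate 1. Over all 11 HSFs the median was -0.08, and -0.18 without event 1 replicate 1.

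Chaperonins and co-chaperones were lower by smaller amounts. All 8 members of the list had a fitted change below 0, against 56.6% of all members. The list median was -0.29, or -0.36 without event 1 replicate 1. None had separated groups, against 1.31% of all members separated in the lower direction. A raw p below 0.05 was found for 2, against 0.45% of all members in that direction. These 2 were the CPN60I identifiers GRMZM2G111477 and GRMZM2G458208. The mitochondrial chaperonin CPN60I, which folds proteins imported into mitochondria, is represented by a pair of identifiers with related sequence that may share reads. GRMZM2G111477 had 2160, 1476 and 1687 normalized reads in event 1 and 2264, 2372 and 1996 in control. Here event 1 replicate 1 was the sample nearest the controls, and the log2 fold change was -0.33, or -0.48 without it. CPNB (GRMZM2G416120) had a log2 fold change of -0.31, the HSP70 nucleotide exchange factor Fes1B (GRMZM5G804658) -0.35, and the plastid chaperonin CHL-CPN10 (GRMZM2G103236) -0.26. SGT1 (GRMZM2G149704), an HSP90 co-chaperone, had -0.12. These values were -0.51 for CPNB, -0.23 for Fes1B, -0.13 for CHL-CPN10 and -0.20 for SGT1 without event 1 replicate 1.

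The folding proteins of the endoplasmic reticulum had small fitted changes, and their difference from the cytosolic chaperones was not tested. The 23 members of that list had a median log2 fold change of -0.04, with 10 above and 13 below 0 and none called. In 3 of the 23 every event 1 sample was below every control sample, against 1.31% of all members. These were bip2 and the protein disulfide isomerase genes PDIL2-3 (GRMZM2G389173) and PDIL5-1 (GRMZM2G073628), with log2 fold changes of -0.25 for PDIL2-3 and -0.20 for PDIL5-1. The HSP70 of this compartment, bip2 (GRMZM2G415007), had 3002, 3224 and 3134 normalized reads in event 1 and 3583, 3338 and 3543 in control. The groups of bip2 did not overlap, but the log2 fold change was only -0.16.

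Heat stress transcripts were then compared with the other tissue and event. In ear, hsp22 had 7723, 6523 and 7075 normalized reads in event 1 and 5066, 3761 and 3997 in control. Event 1 ears were therefore all above control ears, with a log2 fold change of 0.74 ± 0.20 (SE, limma, adjusted p = 0.242) that did not pass the threshold. The difference between tissues, tested as the event 1 effect in ear minus that in ear inflorescence, was 2.24 ± 0.28 on the log2 scale for hsp22 (SE, limma, adjusted p = 0.0174). It was 2.11 without event 1 replicate 1 of ear inflorescence. The transcripts compared here were named from the same ear inflorescence samples, and this choice favours a large difference between tissues. Event 2 ear inflorescence, set against the same controls, had a log2 fold change of -1.45, and the shared controls would put a high control value into both.

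For GRMZM2G097135 the corresponding difference was 3.49 ± 0.57 (SE, limma, adjusted p = 0.146). It had 82, 47.8 and 21.1 normalized reads in event 1 ears and 41, 19.8 and 19 in control ears, which overlapped. In ear the whole HSP70, HSP90 and HSP101 list had a median log2 fold change of 0.32 in event 1, against -0.63 in ear inflorescence. In event 2 ear inflorescence the list median was -0.43. The difference between tissues did not pass the threshold for hsp101 (1.23, limma adjusted p = 0.565), Hsp70 (0.94, adjusted p = 0.65), hsp70-5 (0.97, adjusted p = 0.727) or Hsf26 (3.27, adjusted p = 0.596). For bip2 it was 0.65 (limma adjusted p = 0.742), and bip2 was higher in all event 1 ears, with 3969, 4593 and 3976 normalized reads against 2890, 2891 and 3156 in control ears.

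**Figure D3:**
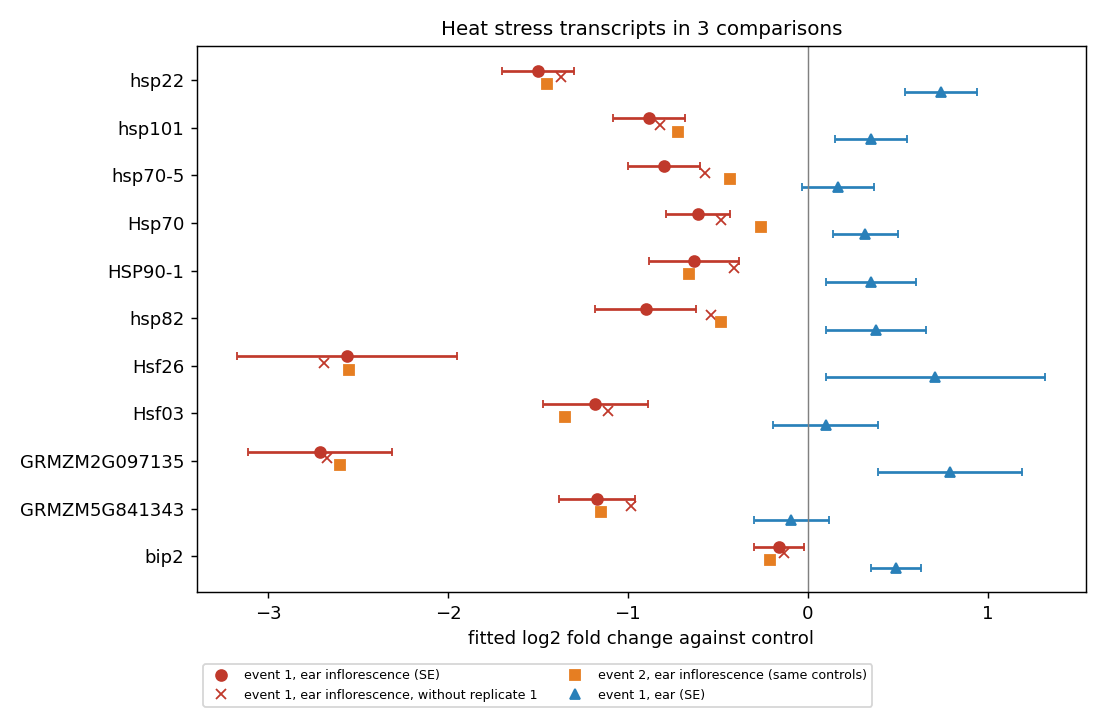
Fitted log2 fold change against control (x axis) of 11 transcripts, namely heat stress and chaperone transcripts and GRMZM5G841343, which has no given function. Values are for event 1 ear inflorescence with and without replicate 1, event 2 ear inflorescence against the same controls, and event 1 ear. Bars are SE. In ear inflorescence all 11 transcripts lie below 0, from -0.16 for bip2 to -2.71 for GRMZM2G097135, while in ear 10 of them lie above 0.

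Further transcripts fell or were lower outside the named heat stress genes. GRMZM5G841343, for which no function is given, had 636, 1019 and 884 normalized reads in event 1 and 2482, 1682 and 1576 in control. It fell by 1.17 ± 0.21 on the log2 scale (SE, limma, adjusted p = 0.124), and by 0.98 without event 1 replicate 1. It was called without event 1 replicate 2, but not when event 1 replicate 1 or 3 or any 1 of the controls was left out. In ear it had 426, 279 and 299 normalized reads in event 1 and 437, 284 and 344 in control, with overlapping groups.

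GRMZM5G823696, also without a given function, was the called transcript with the fewest reads. It had 9.01, 1.9 and 2.42 normalized reads in event 1 and 30.1, 28.6 and 24.6 in control. All event 1 samples were lower, and the log2 fold change was -2.63 ± 0.48 (SE, limma, adjusted p = 0.126). It was also lower in ear, where no reads were found in any of the 3 event 1 samples and the controls had 9.37, 18.5 and 17.9 normalized reads (limma, adjusted p = 0.00958). It was called without event 1 replicate 1, at -3.19, but not when any other of the 6 samples was left out, nor with a pseudocount of 0.1 (limma adjusted p = 1).

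The study lists 7 transcripts as changed in both events in ear inflorescence, and these were chosen on these samples. Of them, 4 were called here. GRMZM2G008611, annotated as an RNA recognition motif protein, had 981, 925 and 892 normalized reads in event 1 and 1359, 1438 and 1570 in control. The groups were well separated, and the log2 fold change was -0.64 ± 0.13 (SE, limma, adjusted p = 0.186). It was not called in limma or in edgeR (adjusted p = 0.609) but was in DESeq2 (adjusted p = 0.00493). GRMZM2G051135, named ERTC, had 24.3, 33.2 and 47.1 normalized reads in event 1 and 109, 79.5 and 62 in control, with no overlap and a log2 fold change of -1.25. GRMZM5G845499 was the member of that set that was higher in event 1, with 182, 171 and 172 normalized reads against 92.5, 104 and 77.9 in control. Its log2 fold change was 0.94, and 0.91 in ear.

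Transcripts without a gene name were also lower in event 1. GRMZM2G382918 had 9.01, 12.3 and 15.7 normalized reads in event 1 and 162, 68 and 50.1 in control, a log2 fold change of -2.67. As for GRMZM2G097135 and Hsf26, control replicate 1 was the highest sample. GRMZM2G080724 had 38.8, 61.6 and 29 normalized reads in event 1 and 170, 120 and 77.9 in control. GRMZM2G443180 had 18, 52.1 and 64.1 in event 1 and 161, 142 and 102 in control, and its log2 fold change of -1.72 was -1.18 without event 1 replicate 1. In both the groups were separate, with control replicate 1 highest, and edgeR called all 3 of these transcripts.

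Large shifts were about as many in each direction. At least 2-fold change together with separated groups was found for 46 members higher in event 1 (0.116%) and 43 lower (0.109%). The higher set held fewer annotated genes. Of the 46 higher transcripts 8 paired with a RefSeq gene (17.4%), compared with 23 of the 43 lower ones (53.5%) and 40.2% of all members. Their median level was 18.3 normalized reads for the higher set and 27.4 for the lower set, against 124.0 over all members. The event 1 sample with the highest value was replicate 1 for 30 of the 46 higher transcripts, against 19507 of all 39596 members. Replicate 1 was the lowest event 1 sample for 19 of the 43 lower transcripts, against 15923 of all members. In ear, 14 of the 46 were separated in the same direction (30.4%), against 11.5% of all members. Of the 43 lower ones 4 were (9.3%), against 7.66% of all members. The 14 include GRMZM2G113994, GRMZM2G024894 and GRMZM2G102954, and also GRMZM2G153001, GRMZM2G027846 and GRMZM2G161383. Transcripts within each of these groups may share reads, so the 14 are not all separate evidence.

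The called transcript that rose with the smaller p was GRMZM2G168222, annotated by the study as a putative calmodulin-binding protein. Calmodulin-binding proteins respond to calcium signals. It had 712, 607 and 638 normalized reads in event 1 and 290, 314 and 373 in control. All event 1 samples were well above the controls, and the transcript rose by 1.00 ± 0.16 on the log2 scale (SE, limma, adjusted p = 0.0594), or 0.94 without event 1 replicate 1. In ear it had 756, 854 and 798 normalized reads in event 1 and 411, 300 and 410 in control, a log2 fold change of 1.12 ± 0.16 (SE, limma, adjusted p = 0.012). The difference between tissues was 0.11 (limma adjusted p = 1). In event 2 ear inflorescence its log2 fold change was 0.50, and it was called in event 1 whichever of the 6 samples was left out. The study listed this transcript as changed in both events in ear, together with GRMZM2G059129, annotated with glycerophosphodiester phosphodiesterase activity. GRMZM2G059129 had 49.9, 58.8 and 43.5 normalized reads in event 1 ear inflorescence and 96.7, 63.8 and 57.2 in control, with overlap. In ear it had 309, 335 and 271 in event 1 and 128, 141 and 141 in control. The effect was thus -0.48 in ear inflorescence and 1.15 in ear, with a difference of 1.63 ± 0.27 (SE, limma, adjusted p = 0.146). The study chose GRMZM2G059129 on these ear samples, which favours a large difference.

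GRMZM2G113994, which has no named gene, rose too. It had 173, 99.5 and 116 normalized reads in event 1 and 49.8, 40.8 and 62.8 in control. Event 1 replicate 1 was highest, the groups did not overlap, and the log2 fold change was 1.31 ± 0.26 (SE, limma, adjusted p = 0.159). It was not called without event 1 replicate 1, at 1.08, and was not called when any of the other 5 samples was left out. In ear it had 80.8, 83.1 and 104 normalized reads in event 1 and 46.9, 33 and 42.2 in control, without overlap.

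Several unnamed transcripts were higher in event 1 in both tissues. GRMZM2G113994, GRMZM2G024894 and GRMZM2G102954 ran nearly in parallel over samples. They may share reads and were not taken as separate evidence. GRMZM2G024894 had 106, 71.1 and 76.2 normalized reads in event 1 ear inflorescence and 33.6, 23.6 and 39 in control. In ear it had 54.7, 64.2 and 75.9 in event 1 and 32.8, 21.1 and 23.2 in control. Both comparisons were free of overlap, with log2 fold changes of 1.37 and 1.32. GRMZM2G102954 likewise had a log2 fold change of 1.36 in ear inflorescence and 1.30 in ear, with 87.3, 55.9 and 49.6 normalized reads in event 1 ear inflorescence against 25.2, 16.5 and 31.8 in control. Event 2 did not show such a difference in ear inflorescence, with log2 fold changes of 0.01 and 0.22 for these transcripts, which were not tested against event 1.

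GRMZM2G128922 was low in ear inflorescence, at 11.8, 17.1 and 16.9 normalized reads in event 1 and 8.41, 3.58 and 2.39 in control. In ear it was high, at 656, 939 and 642 in event 1 and 344, 213 and 228 in control. The log2 fold changes of 1.61 and 1.52 were alike in size. GRMZM2G153001, GRMZM2G027846 and GRMZM2G161383 had a near parallel pattern over samples that is also given by shared reads, and cannot be told apart as separate genes; GRMZM2G027846 had 150, 57.8 and 73.7 normalized reads in event 1 and 44.9, 43.7 and 31.8 in control, and its log2 fold change of 1.1 was 0.71 without event 1 replicate 1.

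**Figure D4:**
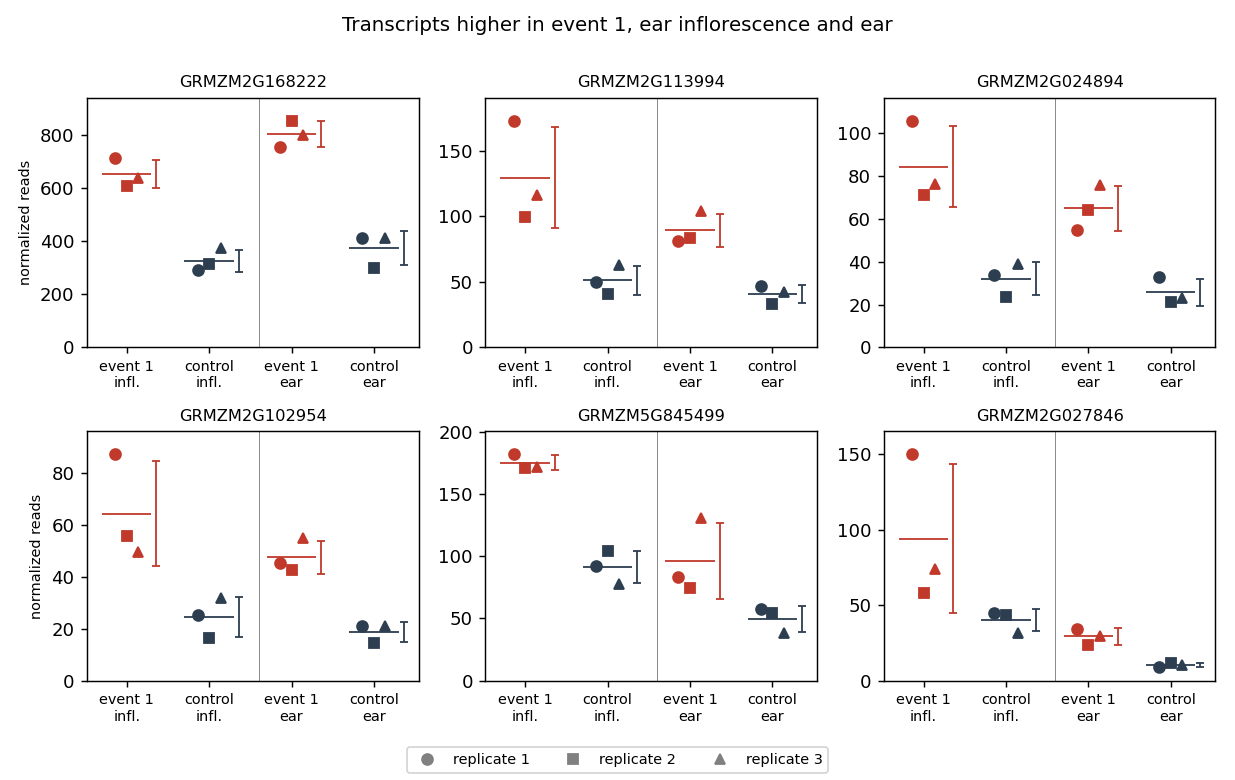
Normalized reads (y axis, from 0) of 6 transcripts in event 1 and control samples of ear inflorescence (left of the line) and ear (right); marker shape gives the replicate, lines the mean and bars the SD. In all 6 the event 1 samples lie above the controls in both tissues, and event 1 replicate 1 of ear inflorescence is the highest of its group in each, at 712 for GRMZM2G168222. GRMZM2G113994, GRMZM2G024894 and GRMZM2G102954 may share reads.

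A few metabolic genes with known roles were higher in event 1 without passing the threshold. Nitrate reductase (GRMZM5G878558), which makes nitrite from nitrate, had 184, 270 and 259 normalized reads in event 1 and 121, 183 and 171 in control. Nitrite reductase (NIR, GRMZM2G079381), the next enzyme in the path to ammonium, had 898, 1201 and 1257 normalized reads in event 1 and 724, 699 and 984 in control. Nitrate reductase was separate from its controls, although its lowest event 1 sample lay just above the highest control, and nitrite reductase overlapped them. The log2 fold changes were 0.58 and 0.48, with limma adjusted p = 1 for both. The whole nitrogen list of 16 members had a median of -0.04, and 0.28 without event 1 replicate 1. Sucrose phosphate synthase (sps1, GRMZM5G875238), which makes the sugar phosphate that becomes sucrose, had 28.4, 24.6 and 24.2 normalized reads in event 1 and 12.6, 15.8 and 22.3 in control, without overlap and with a log2 fold change of 0.61. The protein phosphatase gene PP2C30 (GRMZM2G169000) had 75.5, 91 and 77.4 normalized reads in event 1 and 56.1, 60.9 and 53.3 in control. It too was separated, with a log2 fold change of 0.51.

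Many gene classes differed more among the event 1 replicates than between event 1 and control. Of 48 lists with at least 3 members, 34 had their lowest event 1 median in replicate 1, and 12 changed the sign of their median when it was left out. The ribosomal protein list of 38 members, which build the ribosome, had medians of -0.97, 0.42 and 0.25 in event 1 replicates 1 to 3 and of -0.07, 0.01 and 0.05 in the controls. With all samples its median log2 fold change was -0.10, with 30 members below 0, against 56.6% of all members. None had separated groups, against 1.47% higher and 1.31% lower among all members. Without event 1 replicate 1 the median was 0.32, and all 38 members were above 0. With each of the 6 samples left out in turn the median ranged from -0.35 to 0.32.

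A single gene shows the scale. The ribosomal protein transcript rpl5 (GRMZM5G831780) had 2181, 11764 and 9255 normalized reads in event 1 and 7692, 8694 and 7616 in control. The histone H4 transcript H4C7 (GRMZM2G181153) had 4276, 16487 and 15480 in event 1 and 12144, 12386 and 13510 in control. In each gene replicate 1 was below and replicates 2 and 3 above all controls. The 14 histones had event 1 medians of -1.0, 0.38 and 0.27. The histone genes have near-identical copies that the counting may not separate.

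Other classes had the same pattern. Tubulins, actins and profilins, the proteins of the cytoskeleton (25 members), had event 1 medians of -0.64, 0.53 and 0.22. Beta tubulin TUB1 (GRMZM2G164696) had 15146, 32505 and 29394 normalized reads in event 1 and 20067, 23384 and 24324 in control. Glutathione transferases and antioxidant enzymes (38 members) had -0.92, 0.48 and 0.27. Photosynthesis genes (23 members) had -0.69, 0.44 and 0.23, and aquaporins (26 members), the membrane channels for water, -0.76, 0.55 and 0.08. None of these lists had a member called. Chromatin factors (58 members) ran the other way, at 0.07, -0.22 and -0.02. Of the 58, 45 had a fitted change below 0, against 56.6% of all members. The chromatin remodeller transcript chr122 (GRMZM2G097289) had 3601, 1545 and 2040 normalized reads in event 1 and 2964, 2931 and 2409 in control, with event 1 replicate 1 highest. The parts of gene span and of the difference between ear and ear inflorescence in this pattern were not tested.

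**Figure D5:**
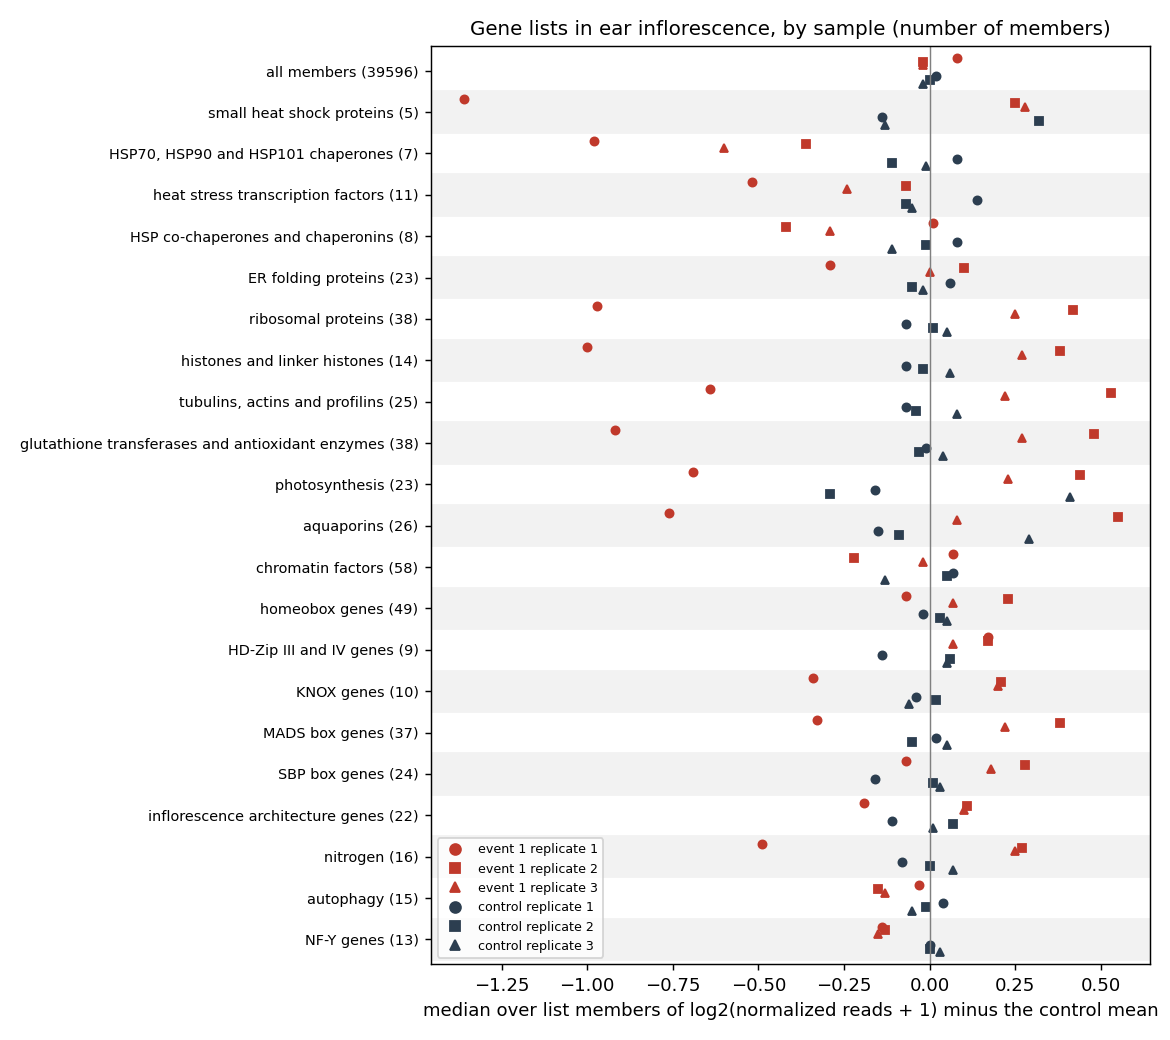
Median over the members of each gene list of log2(normalized reads + 1) minus the control mean (x axis), in each of 3 event 1 and 3 control samples of ear inflorescence. The HSP70, HSP90 and HSP101 chaperones lie below the controls in all 3 event 1 samples (-0.98, -0.36 and -0.60), whereas ribosomal proteins lie at -0.97 in replicate 1 and at 0.42 and 0.25 in the other event 1 replicates.

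The lists of developmental regulators had medians near 0, although single members differed more. KNOX genes maintain the meristem, MADS box genes specify floral organs and SBP box genes set the boundaries and fate of bracts and meristems. The 10 KNOX genes had a median log2 fold change of 0.03, the 37 MADS box genes 0.05, the 24 SBP box genes 0.10 and the 22 inflorescence architecture genes 0.01. No member of these lists was called. Without event 1 replicate 1 the medians were 0.21, 0.30, 0.22 and 0.09. The meristem gene kn1 (GRMZM2G017087) had 4436, 8410 and 8084 normalized reads in event 1 and 7134, 8490 and 6998 in control, with only replicate 1 outside the control range. The MADS box gene MADS34 (GRMZM2G137510) had 14.6, 250 and 422 in event 1 and 281, 485 and 692 in control. Its groups overlapped, event 1 replicate 1 was far below the rest, and the log2 fold change of -1.95 was -0.49 without it. For m26 (GRMZM2G046885), also a MADS box gene, the log2 fold change was -0.84, or -0.26 without event 1 replicate 1. The C-class floral gene ZAG1 (GRMZM2G052890) had 672, 667 and 595 in event 1 and 590, 480 and 568 in control, which were separate by a small margin, and its log2 fold change was 0.24. KNR6 (GRMZM2G119714), a kinase gene known to affect kernel number per row in maize, had 173, 244 and 213 in event 1 and 142, 170 and 188 in control, with overlap. The boundary gene lg1 (GRMZM2G036297) had 75.5, 90 and 59.2 in event 1 and 58.2, 21.5 and 73.9 in control.

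Homeobox genes, the class to which HD-Zip proteins belong, had a median of 0.05 over 49 members, and none was called. The HD-Zip class III and IV list of 9 members was the only list of the 48 in which every event 1 median was above every control median. Its event 1 medians were 0.17, 0.17 and 0.07, and its control medians -0.14, 0.06 and 0.05, so that the margin was small and the list's median change was 0.12. In event 1 ear the list median was -0.32. With 3 samples a group, a few of 48 lists can separate in this way by chance, which was not tested. The epidermal HD-Zip IV gene ocl5 (GRMZM2G130442) had 1182, 1211 and 1130 normalized reads in event 1 and 948, 1083 and 1072 in control, with a log2 fold change of 0.18. Among other homeobox genes, HB45 (GRMZM2G126808) had 83.2, 72 and 59.2 in event 1 and 128, 105 and 143 in control, a log2 fold change of -0.80 without overlap. HB53 (GRMZM2G044752) had 335, 445 and 454 in event 1 and 328, 273 and 354 in control, with overlap and a log2 fold change of 0.37. HD-Zip II genes were not examined as a class, since the tables used here do not name them.

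The NF-Y list, whose members form CCAAT-binding complexes, was the only list besides the large chaperones in which every event 1 median was below every control median. Its 13 members had event 1 medians of -0.14, -0.13 and -0.15 against 0.00, 0.00 and 0.03 in control, with a median log2 fold change of -0.07. As for the HD-Zip list, such separation can arise by chance among 48 lists, which was not tested. NF-YA4 (GRMZM2G008250), at 13.2, 3.79 and 8.46 normalized reads in event 1 and 15.4, 21.5 and 13.5 in control, was separated by a small margin at few reads. The 15 autophagy genes, which act in the bulk recycling of cell contents, had 13 members below 0, against 56.6% of all members. Their median was -0.14, or -0.15 without event 1 replicate 1. None of the NF-Y or autophagy genes was called.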

How the data were processed

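RNA from 3 event 1 and 3 control samples of ear inflorescence was compared, with the other 12 samples of the series entering the fit. The authors extracted RNA with TRIzol, sequenced 50-base reads on an Illumina HiSeq, and mapped them with Bowtie 0.12.8 (after CASAVA 1.8.2, per the labels) to the B73 transcriptome. A read was counted on each transcript it matched, up to 10, so related transcripts share reads. The deposited signal is the read count that the authors normalized with DESeq over all 18 samples, 1 value for each of 76612 identifiers, and no per-sample column was left unused (0). Within the 6 samples, all 197619 low values (at most 60 reads) were whole multiples of 1 step within 0.05 reads (100%), so reads were recovered; the assigned reads were 27293941 to 43705536 per sample and count a read once per transcript. No 2 samples held identical values, and 696 members shared all 18 values with another member.

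The normalized signal, plus 1 and on the log2 scale, was fitted by limma 3.58.1 in R 4.3.3 with a mean for each of the 6 groups, a trended variance and every identifier of the 18 samples. Calls were made where the raw p of limma did not exceed 0.0001, and the adjustment of Benjamini and Hochberg took in every identifier. An exact permutation test of 3 samples against 3 cannot give a two-sided p under 0.1, so none was run for single transcripts. Fold changes on this scale understate the change of transcripts with few reads. On simulated counts for this comparison (76612 identifiers) limma called 75 of 100 changed 4-fold, 8 of 100 changed 2-fold and 21 unchanged ones. In the same order edgeR 4.0.16 called 95, 34 and 7, and DESeq2 1.42.0 called 91, 34 and 14. The simulation gave every identifier the same dispersion, 0.05, and shifted no library as a whole. Its rates may therefore not hold for these libraries. Alternatives were a pseudocount of 0.1, a filter on a mean of 10, quantile normalization, a block for replicate number, a fit to the 6 samples, the recovered reads in edgeR (TMM) and in DESeq2, and leaving out each sample; counts and tissue differences without event 1 replicate 1 were added after seeing the data.

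Gene names and spans were taken from the RefSeq annotation of assembly Zm-B73-REFERENCE-NAM-5.0 (18629 identifiers matched, 15910 of them members and 2229 members with a gene name). The 48 gene lists were matched by these names and hold 1029 members. Members and lists were chosen with earlier results of these data known, so lists are described by counts and medians and not tested. Named transcripts were up to 10 in each direction with the smallest p among members without overlap, the same among named genes, up to 4 per list, and the transcripts the study lists for both events; rpl5, H4C7, TUB1, kn1 and chr122 illustrate their lists. The samples are biological replicates; replicate numbers carry no stated pairing. No sequences are shown.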

Additional observations from a re-analysis of the deposited data

Results flagged for a closer look

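The fitted effect of event 1 differed between ear and ear inflorescence, at the raw threshold, for 3 of the named transcripts. The limma adjusted p was 0.0174 for hsp22 and 0.146 for each of GRMZM2G097135 and GRMZM2G059129. All 3 were named from results in samples that enter the difference, and this choice favours a large difference. Each difference is the log2 fold change in ear minus that in ear inflorescence, from the same limma fit, and its raw p was at or below 0.0001.

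For hsp22 (GRMZM2G007729) the log2 fold change was 0.74 in ear and -1.50 in ear inflorescence, a difference of 2.24, and of 2.11 without event 1 replicate 1 of ear inflorescence. For GRMZM2G097135 it was 0.79 in ear and -2.71 in ear inflorescence, a difference of 3.49. Without event 1 replicate 1 that difference was 3.45, which misses the threshold in limma. For GRMZM2G059129 it was 1.15 in ear and -0.48 in ear inflorescence, a difference of 1.63, and of 1.62 without event 1 replicate 1.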

How the results depend on the processing

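The number of members called, 6 in all, was 0 in a fit to the 6 samples alone and 0 with replicate number as a block (435 and 521 at a raw p below 0.05 in limma; edgeR called 55 and DESeq2 23). It was 10 with quantile normalization, 55 with edgeR and 23 with DESeq2, and 3 to 20 when each replicate in turn was left out, the 20 coming without event 1 replicate 1. Over all identifiers 44 were called, against 21 with the replicate block, 67 with edgeR, 25 with DESeq2 and 88 to 113 when each replicate in turn was left out. The replicate numbers carry no stated pairing, and correlations among 3 samples a group cannot decide whether the samples are paired. Of 9 same-numbered pairs of the 3 ear inflorescence groups, 4 correlated above 0.1 (range -0.22 to 0.31). The 18 pairs with other numbers ranged from -0.44 to 0.43. Of the 3 event 1 samples, 2 correlated best with the control of their own number.

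The log2 fold change of hsp70-4 (GRMZM2G340251), -0.02, was 0.00 with quantile normalization, 0.05 with edgeR, 0.06 with DESeq2 and -0.30 to 0.32 when each replicate was left out. With replicates left out, hsp18a (GRMZM2G404249) ranged from -0.54 to 0.26, hsp18c (GRMZM2G034157) from -0.57 to 0.29, H4C7 (GRMZM2G181153) from -0.64 to 0.33, rpl5 (GRMZM5G831780) from -0.83 to 0.39, TUB1 (GRMZM2G164696) from -0.09 to 0.46 and kn1 (GRMZM2G017087) from -0.33 to 0.13. The highest of each range came without event 1 replicate 1. The median over all members was 0.02 with DESeq2. The nitrogen list ranged from -0.14 to 0.28 with replicates left out. The NF-Y list had -0.03 with quantile normalization, -0.06 with edgeR, -0.03 with DESeq2 and -0.11 to 0.00 with replicates left out. The cause of these shifts was not tested. Over all alternatives, those leaving out a replicate included, 276 of 286 list medians stayed within the spread between replicates. That spread was wide for many lists, so this does not make their medians stable. Of 48 lists, 12 changed the sign of their median without event 1 replicate 1.

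On simulated counts with 3 replicates a group, limma called 8 of 100 changes of 2-fold and 75 of 100 of 4-fold, while edgeR called 34 and 95 and DESeq2 34 and 91. Transcripts with few reads, such as GRMZM5G823696, depend on the pseudocount.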
